A study of Mus musculus with 12 samples.

Results

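The 47 interferon-stimulated genes described here were chosen by name as genes that interferon is known to induce. Their rows were taken from the gene tables of a mouse retina study by Ensembl identifier. Earlier results of that study's data were known when the genes were chosen. All 47 were found among the 54532 identifiers of the tables, 34538 of them with at least 1 count. The study sequenced retinal RNA of 13-week-old wild type C57BL/6 mice as 12 libraries, 3 in each of 4 groups. The SHAM group was a sham control. The MOG group was immunized with the MOG35-55 peptide of myelin oligodendrocyte glycoprotein, which induces experimental autoimmune encephalomyelitis with optic neuritis. The GB20 and GV16 groups were immunized in the same way and then needled at the acupoint of that name, GV16 being the study's control site. The mice were female, the peptide was given in complete Freund's adjuvant with mycobacterium tuberculosis and pertussis toxin, and needled mice had been anesthetized with xylazine and ketamine. Whether SHAM mice received adjuvant, whether SHAM and MOG mice were anesthetized, and how mice map to libraries are not stated in the sources used here. Per the study's methods the experiment was repeated, each repeat held all groups with several mice in each, and RNA was prepared from each group, so that a library may pool mice and a replicate number may stand for a repeat. The p-values below therefore measure the spread between these libraries.

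Interferons are cytokines that cells release on sensing viral nucleic acid or during inflammation. Type I interferons signal through the receptor chains Ifnar1 and Ifnar2, and interferon gamma through Ifngr1 and Ifngr2; in both cases JAK kinases phosphorylate STAT proteins. Type I signalling assembles a complex that holds Stat2 and Irf9 and binds the interferon-stimulated response element (ISRE), whereas interferon gamma acts at gamma-activated sites (GAS). In nervous tissue, interferon-stimulated genes are known to be induced in glia and in infiltrating leukocytes. Oas2, to which the other members were compared, makes 2'-5'-linked oligoadenylate when it meets double-stranded RNA and thereby activates RNase L.

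Promoter sequence shows which of the members carry these elements close to their start. The RefSeq table (GRCm38.p6) held 37 of the 47 members. Oas2, Dhx58, Zbp1, Mx1, Mx2, Usp18, Parp9, Parp14, Ifi27 and Rtp4 were not matched. In the 250 bases before each start, an ISRE core (GAAANNGAAA, or TTTCNNTTTC on the other strand, with overlapping matches allowed) was found in 17 of the 37 members (45.9%) and in 3.46% of the 27025 genes of the table. A GAS core (TTCNNNGAA, the same on both strands) was found in 7 members (18.9%) and in 8.13% of all genes. In all, 4 members held both and 17 held neither. A match is a description of the sequence and not evidence of binding, and a missing match says only that these letters are not in this window. The sequences below are those of the chemokine gene Cxcl10 and of Ifit1, which had large MOG vs. SHAM differences, of the Oas2 relatives Oas1a and Oas3, and of Eif2ak2, which passed the test in MOG vs. SHAM and held a GAS core but no ISRE core. Capitals mark the matches, and each runs 5′ to 3′ up to the base before the RefSeq start.
Cxcl10, chr5:92348890-92349139, strand -: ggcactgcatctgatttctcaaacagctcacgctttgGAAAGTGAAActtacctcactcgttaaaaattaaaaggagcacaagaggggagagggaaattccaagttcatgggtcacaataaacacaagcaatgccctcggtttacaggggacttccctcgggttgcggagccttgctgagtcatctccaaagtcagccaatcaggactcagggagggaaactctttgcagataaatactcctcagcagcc
Ifit1, chr19:34640639-34640888, strand +: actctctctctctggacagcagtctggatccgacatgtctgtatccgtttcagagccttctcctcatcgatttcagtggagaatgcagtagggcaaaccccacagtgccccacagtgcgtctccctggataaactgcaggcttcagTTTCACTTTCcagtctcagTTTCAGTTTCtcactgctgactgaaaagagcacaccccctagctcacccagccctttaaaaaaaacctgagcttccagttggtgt
Oas1a, chr5:120907526-120907775, strand -: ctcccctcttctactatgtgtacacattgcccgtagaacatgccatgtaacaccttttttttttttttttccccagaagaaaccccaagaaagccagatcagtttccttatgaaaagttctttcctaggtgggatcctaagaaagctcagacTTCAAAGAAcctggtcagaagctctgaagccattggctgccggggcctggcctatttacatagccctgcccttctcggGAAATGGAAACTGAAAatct
Oas3, chr5:120777660-120777909, strand -: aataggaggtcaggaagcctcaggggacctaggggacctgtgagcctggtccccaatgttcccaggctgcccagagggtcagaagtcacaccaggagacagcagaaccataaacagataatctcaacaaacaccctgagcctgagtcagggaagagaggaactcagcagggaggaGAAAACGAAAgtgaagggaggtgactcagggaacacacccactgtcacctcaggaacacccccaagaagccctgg
Eif2ak2, chr17:78882573-78882822, strand -: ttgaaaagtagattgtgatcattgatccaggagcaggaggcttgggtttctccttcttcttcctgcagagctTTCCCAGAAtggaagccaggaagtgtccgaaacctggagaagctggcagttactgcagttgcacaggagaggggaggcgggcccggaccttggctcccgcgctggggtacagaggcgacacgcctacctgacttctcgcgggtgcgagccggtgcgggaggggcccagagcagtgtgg
The ISRE core of Cxcl10 began 213 bases before the start, those of Ifit1 104 and 85 bases before it, and that of Oas3 75 bases before it. Oas1a had 2 overlapping ISRE cores in its last 20 bases and a GAS core 98 bases before the start, and the GAS core of Eif2ak2 lay 178 bases before the start. The other members with an ISRE core were Bst2, Ddx60, Gbp2, Gbp3, Gbp7, Ifit3, Ifit3b, Igtp, Irgm1, Isg15, Rsad2, Stat2 and Trim30a, and the other members with a GAS core were Bst2, Gbp7, Ifit2, Igtp and Irf1. Lgals3bp, which also passed the test in MOG vs. SHAM, had neither.

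The libraries held between 15860278 and 19194280 counts assigned to genes. The label of the tissue was checked with 10 rod genes, which summed to between 61072 and 67889.5 CPM (counts scaled to library size by TMM, the trimmed mean of M values) and of which none passed the test in any comparison named here. Markers of some other cells differed between the groups. Of 15 microglial markers, C1qa and Csf1r rose in MOG vs. SHAM, with summed levels from 47.2 to 54.9 CPM among SHAM libraries, 66.9 to 76.2 among MOG, 63.3 to 78.9 among GB20 and 68.3 to 77.6 among GV16 libraries. Of 10 astrocyte and gliosis genes 7 rose in MOG vs. SHAM (Gfap, C4b, Serpina3n, A2m, Osmr, Cd44 and Stat3), with sums from 132 to 160 CPM among SHAM libraries, 259 to 301 among MOG, 228 to 263 among GB20 and 188 to 260 among GV16 libraries. Of 10 Muller cell markers Aqp4 alone was called in MOG vs. SHAM, where it rose, and Rlbp1 alone in GV16 vs. SHAM, where it fell. The median log2 fold change of the 10 was 0.04 in MOG vs. SHAM. Their sums overlapped, with 4371 to 4751 CPM among SHAM and 4182 to 4680 among MOG libraries. All 10 retinal ganglion cell markers fell in MOG vs. SHAM (Nefl, Nefm, Thy1, Tubb3, Slc17a6, Sncg, Rbpms, Pou4f1, Pou4f2 and Isl2). Of 10 pigment epithelium genes 9 were tested, and none passed the test in any comparison. These 10 summed to 22.9 to 31.8 CPM among SHAM libraries, 40.8 to 55.0 among MOG, 41.9 to 50.9 among GB20 and 25.3 to 64.9 among GV16 libraries. Markers of blood leukocytes were low: 1 of 12 T cell genes, 4 of 12 monocyte and macrophage genes and 0 of 6 neutrophil genes were expressed above the filter, and none passed the test. The 12 monocyte and macrophage genes nevertheless summed to 3.03 to 4.06 CPM among SHAM libraries, 4.93 to 14.6 among MOG, 4.86 to 7.11 among GB20 and 4.27 to 8.38 among GV16 libraries, so that every immunized library lay above every SHAM library, and the 4 tested genes had a median log2 fold change of 0.73 in MOG vs. SHAM. The part of these cells in the members' levels was not tested. In such bulk RNA a change in the number of cells and a change in the RNA per cell cannot be told apart.

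The retina expressed most members at a low level. On the FPKM scale, which divides by gene length, the SHAM means lay between 0.0215 for Oas3 and 7.78 for Stat2, the transcription factor of the type I response. Besides Stat2, the highest SHAM means were those of Ifitm3, a membrane protein that blocks virus entry (7.71 FPKM), of Trim25, the ubiquitin ligase of the RIG-I pathway (7.55), and of Ifit3, an RNA-binding effector (6.84). Oas2, at 0.0607 FPKM in SHAM and 0.450 in MOG, ranked 43rd of the 47 by its mean over the 12 libraries. The expression filter kept 18299 genes and 44 members. Oas2 passed it through its MOG libraries (1.74 to 2.46 CPM), as its SHAM and GV16 libraries held 0.124 to 0.450 CPM. Its GB20 libraries held 0.182 to 0.876 CPM. The Oas2 comparisons with MOG therefore concern a gene admitted by the group where it was high. Oas3, an Oas2 relative, had 31 counts in all, namely 2, 2 and 4 for the SHAM libraries, 1, 1 and 0 for MOG, 9, 1 and 1 for GB20 and 3, 4 and 3 for GV16. Mx1, a GTPase against influenza virus that carries a deletion in most inbred laboratory strains, had 2, 4 and 2 counts for the SHAM libraries, 5, 5 and 11 for MOG, 15, 5 and 3 for GB20 and 2, 3 and 6 for GV16. Ifi44, a gene of incompletely known function, had 10, 9 and 6 counts for the SHAM libraries, 9, 7 and 9 for MOG, 16, 8 and 8 for GB20 and 9, 2 and 12 for GV16. These 3 members were not tested, and their groups overlapped except that the MOG libraries of Oas3 lay below those of SHAM and of GV16 and those of Mx1 above those of SHAM.

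Oas2 rose after MOG immunization and fell in both needled groups relative to MOG. Its counts were 5, 5 and 4 for the SHAM libraries, 44, 30 and 29 for MOG, 17, 3 and 7 for GB20 and 4, 7 and 2 for GV16, and its mean levels were 0.273 ± 0.0443, 2.02 ± 0.390, 0.495 ± 0.352 and 0.274 ± 0.165 CPM (SD, n = 3 each). All 3 MOG libraries lay above the other 9, which overlapped one another. Oas2 is at chromosome 5, 120730333 to 120749853, minus strand (GRCm38), and shares no exon sequence with another annotated gene. Oas2 was 7.26-fold higher in MOG than in SHAM (log2 fold change 2.86, SE 0.46, adjusted p = 0.00133, edgeR quasi-likelihood test with Benjamini-Hochberg adjustment over the 18299 genes). It fell in GB20 vs. MOG (log2 fold change -1.97, SE 0.41, adjusted p = 0.0364) and in GV16 vs. MOG (log2 fold change -2.86, SE 0.46, adjusted p = 0.00590), and in the mean of both needled groups vs. MOG (log2 fold change -2.41, SE 0.35, adjusted p = 0.00101). The difference between GB20 and GV16 did not pass the test (log2 fold change 0.89, SE 0.56, adjusted p = 1), with a 95% interval of -0.27 to 2.05 on the log2 scale. Against SHAM the log2 fold change was 0.89 in GB20 (95% interval -0.25 to 2.03) and 0.00 in GV16 (-1.32 to 1.32). Of the glial markers, Osmr and Aqp4 fell in the same comparisons: Osmr by 0.67 on the log2 scale in GB20 vs. MOG (adjusted p = 0.0302) and by 0.66 in GV16 vs. MOG (0.0472), and Aqp4 by 0.35 (0.0293) and 0.34 (0.0472). Their part in the Oas2 difference was not tested. The comparisons with MOG share the MOG libraries with MOG vs. SHAM, so that a high MOG value enters all of them.

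The counts behind Oas2 in the needled groups were small, and the calls against MOG depended on single libraries. In GB20 vs. MOG the adjusted p was 0.262, 0.134 and 0.0924 without the first, the second and the third MOG library, 0.224 without the second GB20 library and 0.171 without the third; over all alternatives it ranged from 0.000693 to 0.262. In GV16 vs. MOG it was 0.0519 without the first MOG library, 0.0526 without the first GV16 library and 0.0563 without the third, in a range of 9.20e-07 to 0.0649. The log2 fold change kept its sign without each library, between -2.70 and -1.60 in GB20 vs. MOG and between -3.39 and -2.51 in GV16 vs. MOG. The rise in MOG vs. SHAM passed the test under each alternative, with adjusted p between 1.01e-07 and 0.0119, and so did the fall in both needled groups together wherever an adjusted p was given, between 7.06e-09 and 0.0243.

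**Figure D1:**
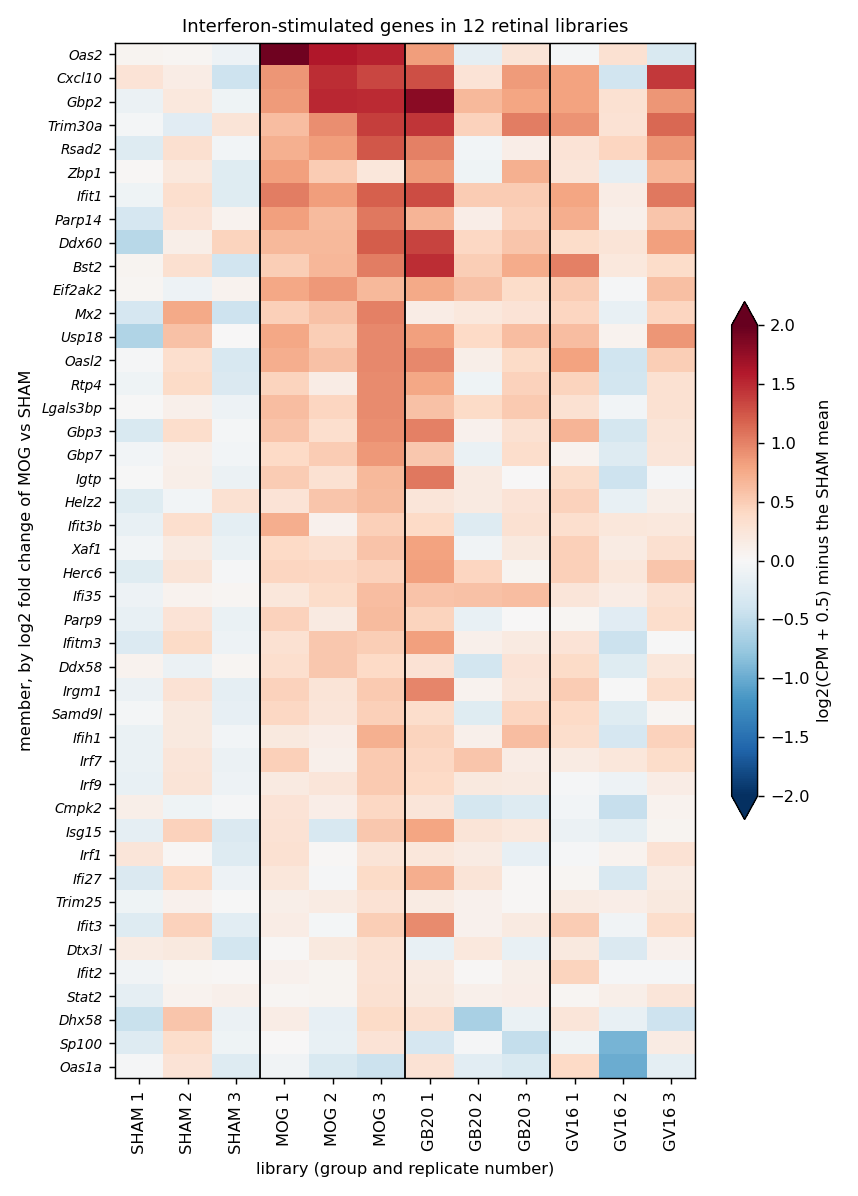
Each tested member (rows, 44 genes) in each library (columns), as log2(CPM + 0.5) minus the SHAM mean of that gene; red is higher and blue lower, and colours saturate at 2. Oas2 is dark in the 3 MOG columns and near white in most needled columns, whereas the rows under it keep colour in GB20 1, GB20 3, GV16 1 and GV16 3.

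MOG immunization was accompanied by higher levels across the list. The list was chosen with earlier results of these data known, and the study had named Oas2 and Cxcl10 among its most upregulated genes. The counts below, set beside those of all genes, are therefore a description. In MOG vs. SHAM, 4 of 44 tested members rose (Oas2, Lgals3bp, Eif2ak2 and Parp14), whereas 0.568% of all genes did, and no member fell (0.771% of all genes). At an unadjusted p under 0.05 there were 26 members, all of them higher, beside 6.22% of all genes. The log2 fold change was above 0 in 43 of 44 members and in 49.5% of all genes, and its median was 0.47 over the members and -0.0023 over all genes. All MOG libraries were higher than all SHAM libraries in 23 members and in 7.87% of all genes. The MOG mean was the highest of the 4 groups in 30 members and the GB20 mean in 12, and the SHAM mean was the lowest in 36. The number of members called was 2 without the third MOG library, 8 without the second SHAM library, where Mx2, Usp18 and Irf9 were among those added (adjusted p = 0.0319, 0.0340 and 0.0350, up to 0.694 over the alternatives), and 7 without the first GB20 library. Over all genes these fits called 91, 216 and 227, against 245 with every library.

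**Figure D2:**
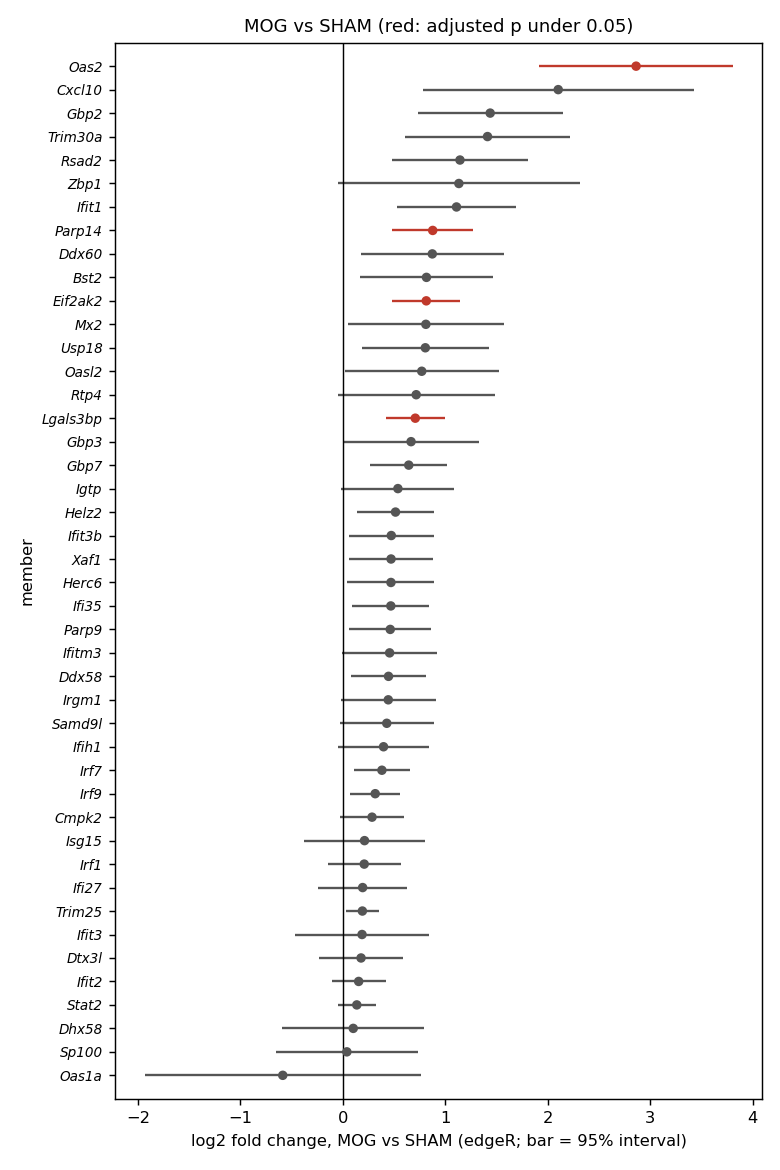
Log2 fold change of MOG vs. SHAM (x axis) for the 44 tested members (y axis), with 95% intervals from the edgeR fit; red marks an adjusted p under 0.05. Of the 44 points 43 lie to the right of 0, and 4 are red.

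Among the 22 RNA sensors and antiviral effectors, 20 were tested and their median log2 fold change in MOG vs. SHAM was 0.49. Eif2ak2, the kinase PKR, which stops translation on binding double-stranded RNA, measured 6.05, 5.47 and 6.21 CPM in the SHAM libraries, against 10.5, 11.2 and 9.49 in MOG, 10.3, 9.12 and 7.80 for GB20 and 8.63, 5.79 and 9.23 for GV16. Its MOG libraries lay above all SHAM libraries (log2 fold change 0.81, SE 0.16, adjusted p = 0.00795), and the call was lost without the second MOG library (adjusted p = 0.0637; 4.24e-05 to 0.0775 over the alternatives). Its GB20 libraries also all lay above SHAM, and its GV16 libraries overlapped SHAM. Ifit1, which binds viral RNA lacking a 2'-O-methylated cap, measured 3.27, 4.53 and 2.89 CPM in the SHAM libraries, against 7.67, 6.64 and 8.71 in MOG, 9.43, 5.17 and 5.18 for GB20 and 6.40, 3.92 and 7.80 for GV16. The MOG and SHAM libraries were apart (log2 fold change 1.11, SE 0.27, adjusted p = 0.0604) and the first GB20 library was the highest of the 12. The Ifit1 difference passed the test in 11 alternatives, among them the fits without the first (adjusted p = 0.0102), the second (0.0462) or the third (0.0499) GB20 library and without the second (0.0176) or the third (0.0343) GV16 library, in a range of 4.53e-07 to 0.251 over the alternatives. DESeq2 on the 12 libraries (0.00490) and on the 6 compared (0.000832) also belonged to the 11. Rsad2, the antiviral protein viperin, measured 1.09, 1.88 and 1.33 CPM in SHAM and 2.63, 2.89 and 4.02 in MOG (log2 fold change 1.14, SE 0.32, adjusted p = 0.0912), and passed the test without the second SHAM library or the first GB20 library (0.00298 to 0.388 over the alternatives). Lower on the same list, with MOG libraries apart from SHAM, stood the nucleic acid sensor Zbp1 (1.13, adjusted p = 0.404), the helicase Ddx60 (0.87, 0.268) and Bst2, the tetherin that holds budding virus at the cell surface (0.81, 0.265). The counts of Zbp1 were low, 5, 7 and 3 in SHAM and 16, 10 and 7 in MOG. Its highest SHAM and its lowest MOG library both held 7 counts and were apart only after scaling (0.412 and 0.420 CPM).

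Within gene families the differences ranged widely. Oas1a, a smaller synthetase of the same family, measured 0.484, 0.706 and 0.333 CPM in the SHAM libraries, against 0.448, 0.307 and 0.240 in MOG, 0.721, 0.365 and 0.305 for GB20 and 0.807, 0 and 0.372 for GV16. Its groups overlapped throughout, and its log2 fold change in MOG vs. SHAM was -0.59 (95% interval -1.93 to 0.76), the lowest of the 44 and the one below 0. Oasl2, an Oas-like protein, measured 11.02, 14.3 and 8.88 CPM in SHAM and 18.9, 17.1 and 22.3 in MOG, apart from each other (log2 fold change 0.77, SE 0.33, adjusted p = 0.373). Of the Ifit genes, Ifit1 stood at 1.11, Ifit3b at 0.47, Ifit3 at 0.19 and Ifit2 at 0.15 on the log2 scale, none past the test; Ifit3 and Ifit3b are near-identical, so that the split of reads between them is uncertain. Of the RNA helicases that sense virus, Ddx58 (RIG-I) stood at 0.44, Ifih1 (MDA5) at 0.40 and Dhx58 (LGP2) at 0.10, the last being among the 3 lowest members. The difference between members of a family was not tested.

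**Figure D3:**
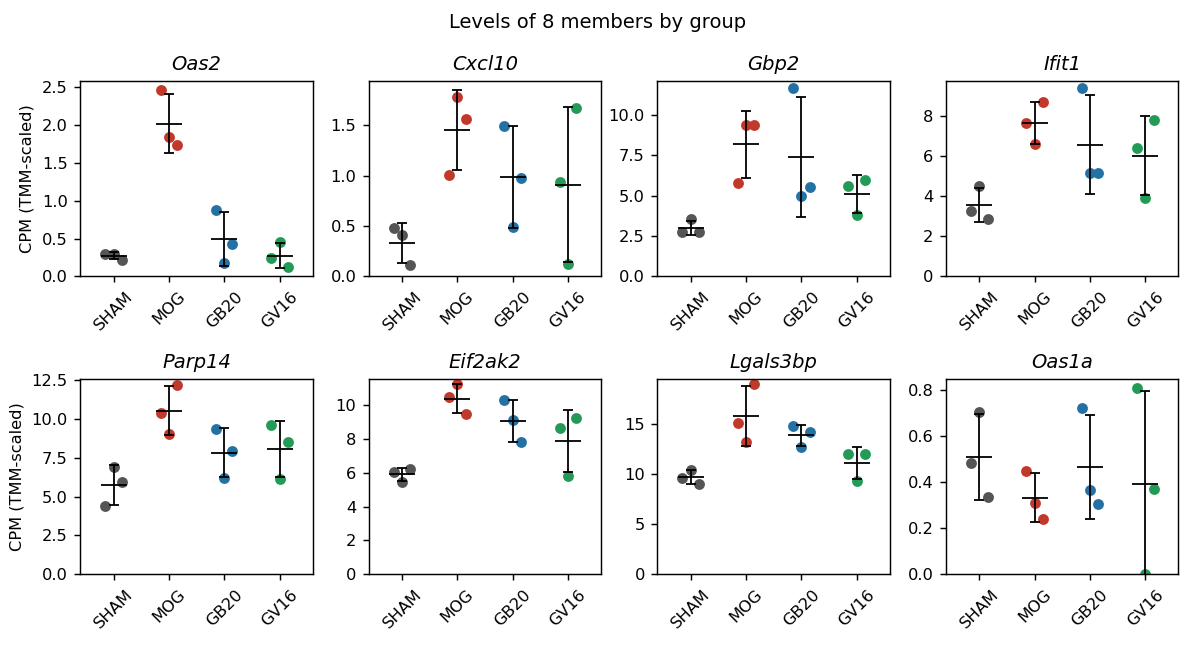
Level in CPM (y axis, from 0) of 8 members in the 4 groups (x axis); points are libraries 1 to 3 from left to right, horizontal marks the mean and bars the SD (n = 3). The 3 MOG points of Oas2 stand clear of all others, while the GB20 and GV16 points of Cxcl10, Gbp2 and Ifit1 reach into the MOG range.

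Among the 6 other induced genes, Cxcl10 had the largest difference. This chemokine, which attracts T cells, measured 0.484, 0.412 and 0.111 CPM in the SHAM libraries, against 1.01, 1.78 and 1.56 in MOG, 1.49, 0.486 and 0.974 for GB20 and 0.931, 0.129 and 1.67 for GV16. Its MOG libraries exceeded the SHAM libraries with no overlap, and both needled groups overlapped MOG, GV16 also SHAM. With counts of 8, 7 and 2 in SHAM and 18, 29 and 26 in MOG, its 4.29-fold difference did not pass the test (log2 fold change 2.10, SE 0.63, adjusted p = 0.139). Among the fits with 1 library left out it passed without the second GV16 library (adjusted p = 0.0301). It also passed with DESeq2, the study's tool, on the 6 libraries compared (0.0370), with edgeR on those libraries (0.0278) and with no filter on low counts (0.00031). The range over the alternatives was 0.00031 to 0.452. Of the Cxcl10 exon length 5.91% overlaps Art3 on the other strand. Lgals3bp, a secreted protein that binds galectin, measured 9.57, 10.4 and 8.99 CPM in the SHAM libraries, against 15.1, 13.1 and 19.0 in MOG, 14.7, 12.7 and 14.1 for GB20 and 11.98, 9.26 and 12.01 for GV16. It rose in MOG vs. SHAM (log2 fold change 0.71, SE 0.14, adjusted p = 0.00747), a call lost without the third MOG library (adjusted p = 0.103; 2.76e-05 to 0.103 over the alternatives). Of the other induced genes Rtp4, Xaf1 and Ifi27, the first 2 stood at 0.71 and 0.47 and Ifi27 at 0.19 on the log2 scale.

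Of the 8 members of the ISG15, ubiquitin and ADP-ribose pathways, Parp14 passed the test. Parp14, an ADP-ribosyltransferase, measured 4.36, 6.88 and 5.94 CPM in the SHAM libraries, against 10.4, 9.03 and 12.2 in MOG, 9.32, 6.20 and 7.92 for GB20 and 9.62, 6.11 and 8.48 for GV16. MOG and SHAM did not overlap (log2 fold change 0.88, SE 0.19, adjusted p = 0.0186), and the call was lost without the first SHAM library (adjusted p = 0.123) or the third MOG library (0.147; 7.87e-06 to 0.152 over the alternatives). Trim30a, a member of the TRIM family that dampens Toll-like receptor signalling, measured 0.666, 0.529 and 0.943 CPM in the SHAM libraries, against 1.34, 1.78 and 2.64 in MOG, 2.73, 1.16 and 1.95 for GB20 and 1.74, 0.964 and 2.17 for GV16. Its MOG, GB20 and GV16 libraries all lay above its SHAM libraries (log2 fold change 1.41, SE 0.39, adjusted p = 0.0783 in MOG vs. SHAM). The difference passed the test in alternatives that included the fit without the first MOG library and the fit with replicate number as a block (0.00438 to 0.392 over the alternatives). Usp18, the protease that removes Isg15 and restrains the type I receptor, stood at 0.80, Herc6 at 0.47, Parp9 at 0.46, Isg15 itself at 0.21, Trim25 at 0.19 and Dtx3l at 0.18. Parp9 and its partner Dtx3l share exon sequence on opposite strands.

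The 5 interferon-inducible GTPases, which attack the vacuoles of intracellular pathogens, had a median log2 fold change of 0.64 in MOG vs. SHAM, and none passed the test. Gbp2 measured 2.72, 3.53 and 2.77 CPM in the SHAM libraries, against 5.76, 9.40 and 9.37 in MOG, 11.6, 4.99 and 5.54 for GB20 and 5.59, 3.79 and 5.95 for GV16. Its MOG and needled libraries all lay above SHAM (log2 fold change 1.44, SE 0.33, adjusted p = 0.0532), and its adjusted p fell under 0.05 in 8 alternatives. Among them were the fits without the first MOG library (0.0223) and without the first, the second or the third GB20 library (0.000850, 0.0183 and 0.0397). The others were DESeq2 on the 12 libraries (0.000207) and on the 6 compared (6.76e-06), edgeR on those 6 (0.00146) and no filter (2.56e-10). The highest over the alternatives was 0.223. Gbp7 measured 5.69, 6.41 and 5.71 CPM in the SHAM libraries, against 7.95, 8.60 and 11.3 in MOG, 8.81, 5.35 and 7.73 for GB20 and 6.27, 4.89 and 7.12 for GV16. It was apart between MOG and SHAM (log2 fold change 0.64, SE 0.18, adjusted p = 0.0893), and 11.3% of its exon length overlaps another annotated gene. The adjusted p of Gbp7 was 0.00782 to 0.438 over the alternatives. Those in which it was under 0.05 included the fit with no filter on low counts and the fit with replicate number as a block. Gbp3, Igtp and Irgm1 stood at 0.66, 0.54 and 0.44. None of the 6 transcription factors and adaptors passed the test, with log2 fold changes of 0.47 for Ifi35, 0.38 for Irf7, the factor that amplifies type I interferon, 0.32 for Irf9, 0.21 for Irf1, 0.14 for Stat2 and 0.04 for Sp100, a nuclear body protein and among the 3 lowest.

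Against MOG, Oas2 was the 1 member that passed the test in the needled groups. Oas2 had passed the expression filter through its MOG libraries. The call of 1 member in each comparison below is therefore a description of Oas2 and not a result about the members. In GB20 vs. MOG 1 of 44 members fell, beside 0.142% of all genes, and 3 were lower at an unadjusted p under 0.05 (Oas2, Parp14 and Cmpk2) beside 3.89% of all genes. Of the members 14 were above 0 (50.2% of all genes) and the median log2 fold change was -0.13. In GV16 vs. MOG 1 of 44 fell, beside 0.0984% of all genes, and 8 were lower at an unadjusted p under 0.05 (Oas2, Lgals3bp, Gbp7, Cmpk2, Irf9, Eif2ak2, Ifitm3 and Gbp2) beside 3.01%. Here 3 members were above 0 (50.9% of all genes) and the median was -0.34. In both needled groups vs. MOG, 1 member fell beside 0.208% of all genes, 8 were lower at an unadjusted p under 0.05 beside 3.89%, and the median was -0.25. Of the other members that rose in MOG vs. SHAM, Lgals3bp stood at -0.18 in GB20 vs. MOG and -0.51 in GV16 vs. MOG, Eif2ak2 at -0.19 and -0.40, and Parp14 at -0.42 and -0.38, none past the test (adjusted p from 0.298 to 0.947). The medians over all genes lay between -0.0041 and 0.0024 across the comparisons.

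**Figure D4:**
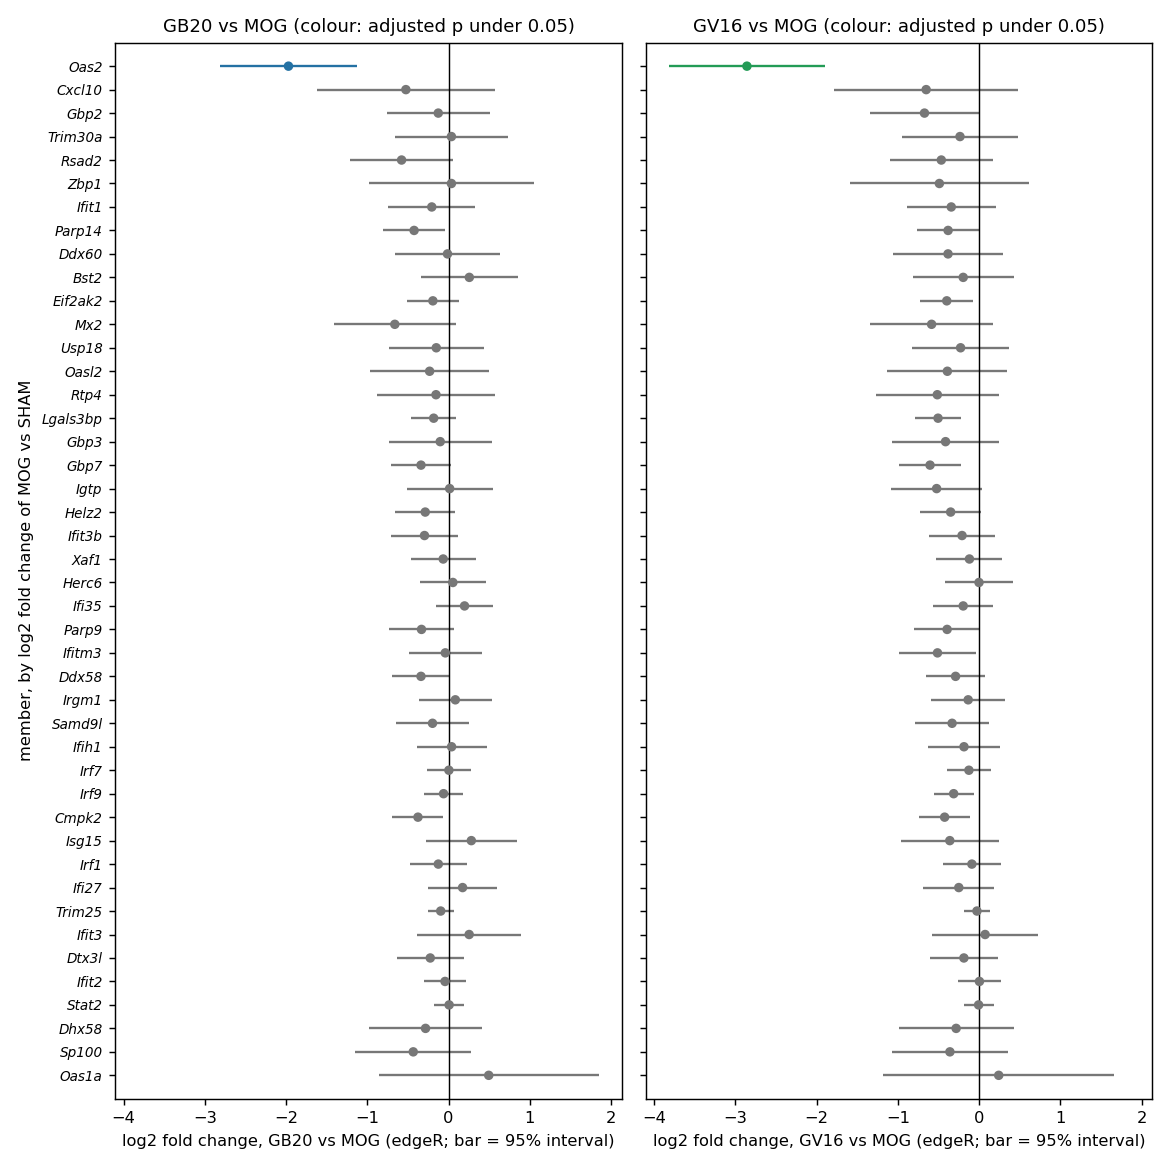
Log2 fold change of GB20 vs. MOG (left) and GV16 vs. MOG (right) on the x axes for the 44 tested members (y axis, in the order of MOG vs. SHAM), with 95% intervals from the edgeR fit; colour marks an adjusted p under 0.05. Oas2 is the coloured point in both panels, 30 points of the left panel and 41 of the right lie below 0, and the comparisons share the MOG libraries.

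A member was taken to follow Oas2 where all MOG libraries exceeded all SHAM, all GB20 and all GV16 libraries. Among the 44 members Oas2 alone met these conditions, as did 219 of the 18299 genes (1.2%). This is a description, since Oas2 had been seen to have the pattern. MOG exceeded SHAM and GB20 with no overlap in Oas2 and Ddx58 (2.4% of all genes), and SHAM and GV16 in Oas2, Gbp7, Lgals3bp, Eif2ak2 and Cmpk2, the last a nucleotide kinase next to Rsad2 (2.11% of all genes). The MOG libraries lay above the GB20 libraries in 4 members (Oas2, Ddx58, Mx2 and Helz2) beside 7.71% of all genes, and above the GV16 libraries in 8 (Oas2, Lgals3bp, Gbp7, Cmpk2, Irf9, Eif2ak2, Ifitm3 and Mx2) beside 6.45%. The share of members that met each single condition against GB20 was thus near that of all genes. The answer also turned on single libraries. Mx2, a relative of Mx1 that is annotated as a polymorphic pseudogene, joined Oas2 without the second SHAM library. Eif2ak2 joined without the third MOG library, and Ddx58 without the first GV16 library. Without the first MOG library Ddx58 and Helz2 joined, without the first GB20 library Eif2ak2, Cmpk2 and Gbp7, and without the second MOG library Cmpk2, Ifit3b, Parp9, Parp14 and Lgals3bp. The conditions are easier to meet with a library left out. The share of all genes that met them was 3.85%, 2.39% and 2.46% without the first, the second and the third MOG library. It was 1.37% without the second SHAM, 1.51% without the first GB20 and 1.43% without the first GV16 library.

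The size of what remained of the MOG increase gave a graded view of the same question. For Oas2, the GB20 vs. SHAM log2 fold change was 31.1% and the GV16 vs. SHAM log2 fold change 0.0791% of that of MOG vs. SHAM. Over the 28 other members with a MOG vs. SHAM log2 fold change of at least 0.4, the median was 79.8% in GB20 (18.3% to 142%) and 54.4% in GV16 (-12.4% to 99.9%), and 23 of the 28 kept less in GV16 than in GB20. The 28 were chosen by the MOG vs. SHAM value that is also the divisor, and that choice by itself can lower the shares. No such share was taken over all genes, so these medians do not show an effect of needling. Taken directly, the median log2 fold change of GB20 vs. GV16 was 0.15, with 33 of 44 members above 0 (50.3% of all genes). It was -0.03 with 19 of 44 above 0 without the first GB20 library, and -0.01 with 23 of 46 without the second GV16 library, so that the order of GB20 and GV16 rested on each of these libraries. Without the second or the third GB20 library it was 0.33 and 0.23, and without the first or the third GV16 library 0.28 each. Nearest to Oas2 by the mean absolute difference of the 2 percentages were Parp9 (8.96 percentage points), Gbp7 (11.04), Mx2 (20.3), Ddx58 (21.1) and Helz2 (22.4). All these comparisons share the SHAM libraries, and the log2 fold changes of these 5 in MOG vs. SHAM were 0.46, 0.64, 0.81, 0.44 and 0.51, none past the test.

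Against SHAM, no member passed the test in either needled group. In GB20 vs. SHAM the count was 0 of 44 by edgeR, beside 0.344% of all genes called in either direction, 2 by DESeq2 on the 12 libraries (Gbp2 and Bst2) and 1 on the 6 compared (Gbp2); 16 members were higher at an unadjusted p under 0.05 (4.24% of all genes), 39 were above 0 (50.3%), 9 had all GB20 above all SHAM libraries (5.66%) and the median log2 fold change was 0.44. Over all genes DESeq2 called 152 on the 12 libraries and 124 on the 6. The largest log2 fold changes were those of Cxcl10 (1.58), Trim30a (1.45, adjusted p = 0.114), Gbp2 (1.31, 0.139) and Bst2 (1.07, 0.176). In GV16 vs. SHAM the count was 0 of 44 by edgeR, beside 0.656% of all genes called in either direction, and 0 by DESeq2; 8 members were higher at an unadjusted p under 0.05 (5.25% of all genes), 36 were above 0 (49.0%), 4 had all GV16 above all SHAM libraries (6.86%) and the median was 0.21. Between GB20 and GV16, 0 of 44 members were called by edgeR (0.00546% of all genes in either direction) and 0 by DESeq2. Isg15, Ifitm3, Ifi35, Lgals3bp and Irf9 were higher in GB20 at an unadjusted p under 0.05 (1.62% of all genes), with log2 fold changes of 0.64, 0.47, 0.39, 0.32 and 0.25. The GB20 libraries lay above the GV16 libraries with no overlap in 4 of 44 members (4.03% of all genes) and below them in 0 (4.32%). Ifi35, among the 4, measured 4.53, 4.62 and 4.69 CPM in GB20 and 3.54, 3.28 and 3.72 in GV16. Of the Ifi35 exon length 16.8% overlaps another annotated gene on the other strand.

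The libraries of a group differed from each other in the members' levels. As the median over the 44 members of the log2 difference from the SHAM mean, the libraries stood at -0.11, 0.22 and -0.10 for SHAM, 0.43, 0.33 and 0.60 for MOG, 0.71, 0.11 and 0.26 for GB20, and 0.37, -0.08 and 0.30 for GV16, whereas the medians over all genes were near 0 in each. On this measure every MOG library was higher than every SHAM library, and the needled groups overlapped both. The first GB20 library was the highest of its group in 36 of the 44 members, the third MOG library in 34 and the second SHAM library in 34, and the second GV16 library was the lowest of its group in 36. The highest MOG value of Oas2 was that of the first library. Without the first GB20 library, the median log2 fold change of GB20 vs. MOG was -0.31 with 4 of 44 members above 0, in place of -0.13 with 14, and it was -0.01 without the second GB20 library, -0.07 without the third and -0.02 without the third MOG library. Without the second GV16 library, that of GV16 vs. MOG was -0.15 in place of -0.34, and without the third MOG library -0.20. In both needled groups vs. MOG, the median of -0.25 was -0.12 without the third MOG library, and -0.16 without the second GV16 or the second GB20 library. Against SHAM, the median of GB20 was 0.17 without the first GB20 library in place of 0.44, and that of GV16 was 0.12 without the first GV16 library, 0.32 without the second and 0.32 without the second SHAM library in place of 0.21.

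The rest of the pathway was read from lists of ligands, receptors, signalling proteins and further induced genes. Of 14 interferon ligand genes none reached the expression filter; Ifna1, Ifna4, Ifna5, Ifna6, Ifnb1, Ifne and Ifnl3 had no count in any library, and Ifng had 4 counts in all, 2 in the first and 2 in the third GB20 library. Of 6 receptor genes 5 were tested and none was called in any comparison; in MOG vs. SHAM Ifnar1, Ifnar2, Ifngr1 and Ifngr2 stood at -0.06, -0.11, -0.05 and -0.03 on the log2 scale. Of 9 signal transduction genes Stat3, which serves mainly the interleukin-6 family of cytokines and also stands on the gliosis list, was the one called. Stat3 rose in MOG vs. SHAM (log2 fold change 0.71, SE 0.10, adjusted p = 0.000224), in GB20 vs. SHAM (0.59, adjusted p = 0.00494) and in GV16 vs. SHAM (0.51, 0.0109). Of 7 nucleic acid sensing genes and 7 feedback inhibitors that were tested, none was called in any of the 7 comparisons. Of 48 further interferon-induced genes 35 were tested, with a median log2 fold change of 0.42 in MOG vs. SHAM, -0.18 in GB20 vs. MOG and -0.33 in GV16 vs. MOG. Tor3a, a torsin ATPase, was the one called (log2 fold change 0.67 in MOG vs. SHAM, SE 0.16, adjusted p = 0.0313), with levels of 4.05 to 4.999 CPM in SHAM and 6.44 to 8.71 in MOG. The Oas2 relatives Oas1b, which is annotated as a polymorphic pseudogene, and Oas1c stood at 0.80 and 0.70, neither past the test.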

How the data were processed

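RNA of the mouse retina was sequenced in 12 libraries, and groups follow the sample labels. The authors aligned reads with HISAT2 2.0.5 to mm10 (GRCm38), per the submitters' processing notes, and counted reads per gene with featureCounts, per the study's methods; the deposited values are raw counts per Ensembl gene. The deposited FPKM values are those counts divided by gene length and by 1 factor per library, so they hold no independent information. Gene annotation, strand setting and treatment of multimapping reads are not stated in these sources. Symbols were matched by identifier to GENCODE vM21, and promoters were taken from RefSeq (GRCm38.p6).

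Counts were filtered with filterByExpr, scaled by TMM and tested with the quasi-likelihood test of edgeR 4.0.16 in R 4.3.3, in 1 fit over the 4 groups (8 residual degrees of freedom), with Benjamini-Hochberg adjustment over 18299 genes and a threshold of 0.05. The 7 comparisons were MOG vs. SHAM, both needled groups vs. MOG, each alone and together, each needled group vs. SHAM, and GB20 vs. GV16. The test was checked on simulated data. Genes were named by rule: Oas2, members called in any comparison, members that followed it, the 10 largest and 3 lowest differences in MOG vs. SHAM, members that failed the filter, and called genes of the pathway and marker lists; other members are named to account for their role groups, and were chosen after their values were seen. Members and lists were chosen with earlier results of these data known. DESeq2 1.42.0, limma 3.58.1 on log2(FPKM + 1) or log2(FPKM + 0.1), other scaling, no filter, the compared libraries alone, a length offset, a replicate block and leaving out each library were the 22 alternatives. Depth was 15860278 to 19194280 counts per library, and low members rest on few counts. The result of 1 gene of the pathway lists is not reported here.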

Additional observations from a re-analysis of the deposited data

How the results depend on the processing

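Of the 44 tested members, 4 were called in MOG vs. SHAM. The count was 13 with no filter on low counts, 8 with DESeq2 on the 6 libraries compared, 8 with edgeR on those libraries, 7 with the replicate block and a gene length offset, 2 with limma on log2(FPKM + 1), 1 with limma on log2(FPKM + 0.1), and 2 to 8 when 1 library was left out. Over all genes the count was 245, against 539 with no filter, 452 with block and offset, 117 with limma at a pseudocount of 1 and 106 at 0.1. It was 240 with DESeq2 on the 6 libraries, 196 with edgeR on them, and 91 to 427 when 1 library was left out. In GB20 vs. MOG and in GV16 vs. MOG the count of 1 became 0 with limma at 0.1, where the Oas2 log2 fold change was -1.44 and -1.78, and was 0 to 1 when 1 library was left out, with Oas2 between -2.70 and -1.60 and between -3.39 and -2.51. Over all genes limma at 0.1 called 15 in place of 44 in GB20 vs. MOG and 5 in place of 30 in GV16 vs. MOG. With 1 library left out the all-gene counts were 13 to 83 and 10 to 38. In GB20 vs. SHAM the count of 0 became 7 with no filter, 2 with DESeq2 on 12 libraries, 1 with DESeq2 on 6, 1 with the replicate block (Trim30a) and 3 with block and offset. Over all genes these fits called 282, 152, 124, 182 and 238, in place of 63. No filter gave 2 in GV16 vs. SHAM in place of 0, and 2 in both needled groups vs. MOG in place of 1. The all-gene counts there were 395 in place of 120 and 159 in place of 58. Members that followed Oas2 numbered 1 to 6 when 1 library was left out, beside 1.31% to 3.85% of all genes (1.2% with every library). No direction of a called result was reversed in any alternative, and the cause of the moves was not tested.

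The methods describe repeats that each held all groups, but no source says that a replicate number marks a repeat, so no pairing was assumed. The correlation of deviations ran from -0.0966 to 0.286 over 18 same-numbered pairs (3 over 0.1). Its median was 0.0320 there and -0.0152 over 36 differently numbered pairs, and 9 of 12 libraries correlated best with their own number. These values do not settle whether the numbers mark repeats, and the main fit takes no account of them. The replicate block called 6 members in MOG vs. SHAM (Gbp7 and Trim30a beside the 4), with 404 genes in all; over all genes it called 73 in place of 44 in GB20 vs. MOG, 47 in place of 30 in GV16 vs. MOG, 182 in place of 63 in GB20 vs. SHAM and 236 in place of 120 in GV16 vs. SHAM. DESeq2 gave no adjusted p for Oas2 against MOG, where its unadjusted p on 12 libraries was 0.000193 for GB20 and 2.00e-06 for GV16. Few counts limit Oas2 and Cxcl10.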
